A study of Mus musculus with 48 samples.

Results

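The 49 genes described here are the protein-coding mouse genes whose symbols start with Nduf, chosen by symbol from the 21900 protein-coding genes of the RefSeq table for GRCm38.p6 (mm10). They encode the nuclear subunits of respiratory complex I, its Ndufaf assembly factors and a few relatives. By place in the enzyme, 9 belong to the N module, 5 to the Q module, 12 to the proximal membrane arm and 11 to the distal membrane arm, 8 are assembly factors and 4 carry an Nduf symbol without being standing subunits. The last 4 are Ndufa4, now counted with cytochrome c oxidase, its hypoxia-responsive relative Ndufa4l2, and the Ndufb4-like loci Ndufb4b and Ndufb4c.

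The series holds 48 ChIP-seq samples from mouse embryonic stem cells in 24 groups of 2, all on the Ainv15 line, which was built for doxycycline-inducible expression. Wildtype cells were Ainv15(iCre). The knockouts were iZbtb11-HA Zbtb11KO, iZfp131-HA Zfp131KO and, for NELF and H3K4me3 only, the double knockout iZbtb11-HA iZfp131-V5 Zbtb11KO Zfp131KO. All cells spent 3 days in culture, without doxycycline in -2i+LIF for every target but one. The HA tag was instead measured with doxycycline in +2i+LIF, so the HA reads show tagged ZBTB11 or ZFP131 in a knockout line under another medium. Each genotype is 1 line, so a deletion and a line difference cannot be told apart. No label says that the 2 samples of a group came from separate cultures, so p-values measure the spread between these libraries only.

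Complex I, NADH:ubiquinone oxidoreductase, is the entry point of electrons into the mitochondrial respiratory chain. Its N module oxidises NADH, its Q module passes the electrons to ubiquinone, and its membrane arm pumps protons out of the matrix, while assembly factors build the parts and leave. The nuclear genes for it are expressed in nearly all cells from CpG-rich promoters, with NRF1, YY1 and the ETS factor GABPA among their known regulators. ZBTB11 and ZFP131 are zinc finger transcription factors. Loss of ZBTB11 has been reported to impair complex I in other work.

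The promoters of 6 members are shown because the results turn on them: 4 genes with much ZBTB11, of which Ndufc2, Ndufaf1 and Ndufa12 changed most, Ndufa10 with ZFP131, and Ndufa11 with neither factor. Each line gives the 250 bases before the annotated start, on the strand of the gene, from RefSeq on GRCm38.p6. Ndufa12 is chr10:94198785-94199034 (plus strand), Ndufs3 is chr2:90904722-90904971 (minus), Ndufc2 is chr7:97399753-97400002 (plus), Ndufaf1 is chr2:119662835-119663084 (minus), Ndufa10 is chr1:92473759-92474008 (minus) and Ndufa11 is chr17:56717512-56717761 (plus). Capitals mark the letters CCGGAAG, the core read by ETS factors, in Ndufs3 and Ndufaf1, and overlapping copies of GCATGCGC, read by NRF1, in Ndufa11.
Ndufa12: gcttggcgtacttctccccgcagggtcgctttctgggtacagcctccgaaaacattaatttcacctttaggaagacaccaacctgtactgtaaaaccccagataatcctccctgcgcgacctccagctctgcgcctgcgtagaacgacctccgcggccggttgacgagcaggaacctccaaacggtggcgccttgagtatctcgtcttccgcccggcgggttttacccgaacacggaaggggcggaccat
Ndufs3: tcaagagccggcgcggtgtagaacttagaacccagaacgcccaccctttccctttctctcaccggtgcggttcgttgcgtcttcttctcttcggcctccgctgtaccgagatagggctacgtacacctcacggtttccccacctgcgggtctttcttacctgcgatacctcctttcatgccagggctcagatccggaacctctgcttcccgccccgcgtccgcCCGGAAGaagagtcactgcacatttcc
Ndufc2: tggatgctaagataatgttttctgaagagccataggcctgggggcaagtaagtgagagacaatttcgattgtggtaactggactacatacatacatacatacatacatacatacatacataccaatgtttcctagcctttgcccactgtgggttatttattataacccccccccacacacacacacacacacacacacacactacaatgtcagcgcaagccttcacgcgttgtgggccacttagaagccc
Ndufaf1: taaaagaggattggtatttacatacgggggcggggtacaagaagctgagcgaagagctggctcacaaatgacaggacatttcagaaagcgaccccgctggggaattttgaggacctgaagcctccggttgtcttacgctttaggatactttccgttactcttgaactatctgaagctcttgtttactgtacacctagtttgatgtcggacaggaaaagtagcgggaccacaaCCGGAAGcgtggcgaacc
Ndufa10: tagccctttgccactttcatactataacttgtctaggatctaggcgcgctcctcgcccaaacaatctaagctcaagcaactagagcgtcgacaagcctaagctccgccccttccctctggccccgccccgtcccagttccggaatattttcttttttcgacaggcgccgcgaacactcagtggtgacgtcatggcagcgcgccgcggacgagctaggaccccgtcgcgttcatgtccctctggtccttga
Ndufa11: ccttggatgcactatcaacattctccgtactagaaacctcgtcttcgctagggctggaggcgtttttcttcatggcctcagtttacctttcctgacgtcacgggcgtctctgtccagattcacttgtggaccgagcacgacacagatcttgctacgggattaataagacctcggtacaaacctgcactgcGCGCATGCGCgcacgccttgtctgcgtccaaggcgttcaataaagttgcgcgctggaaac
In Ndufs3 the ETS letters lie 27 to 21 bases before the start, and in Ndufaf1 18 to 12 bases before it. In Ndufa11 the NRF1 letters occur on both strands, at 60 to 53 and 58 to 51 bases before the start. Ndufa12, Ndufc2 and Ndufa10 hold neither of these, nor the YY1 letters AAGATGGCG, in the stretch shown. The Ndufc2 window is the poorest in G and C of the 6, at 45.2%, and the Ndufs3 window the richest, at 59.2%. Windows for Ndufs1, Ndufaf6, Ndufa4l2, Ndufb9, Ndufb4c and Ndufa2 are not used here.

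ZBTB11 was listed at most complex I genes, and at 8 of them with over 2000 reads. The authors' caller listed ZBTB11 events, that is point-like binding sites, within 1 kb of either gene end at 29 of 49 members (59.18%), against 7867 of all 21900 genes (35.92%). Among genes with a wildtype H3K4me3 domain, the mark of active starts, the counts were 29 of 44 members (65.91%) and 7740 of 14055 genes (55.07%). The median of the reads summed over a bound gene's events was 159 for members and 120 for all bound genes. Above 2000 reads, a level chosen after the values were seen, stood 8 members (16.3%) and 411 genes in all (1.88%). No test was run on these counts.

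The 8 heavily bound genes came from every part of the enzyme. Ndufs3, a core Q module subunit, had the most, with 3958.7 reads in 6 events and the largest event 9 bases past the start. Ndufs1, the large iron-sulfur subunit of the N module, had 3605.2 reads in 5 events. Ndufb3 of the distal arm had 3094.5 reads. Ndufaf1, an assembly factor of the intermediate complex that builds the membrane arm, had 2873.8 reads with its largest event 24 bases upstream of the start. Ndufa12, an accessory subunit of the N module, had 2809.2 reads with its largest event 67 bases upstream. Ndufa13, also known as GRIM-19, had 2689.2 reads, Ndufaf7, a methyltransferase that acts on the Q module, had 2420.1, and Ndufc2 of the proximal arm had 2352.3. Just under the chosen level came Ndufb1 with 986.9 and Ndufv1 with 836.5, so a wide gap separated the 8 from the rest. By part, events lay at 8 of 9 N module genes, 2 of 5 Q module genes, 7 of 12 proximal arm genes, 7 of 11 distal arm genes, 5 of 8 assembly factors and 0 of the 4 other Nduf genes.

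ZFP131 was at fewer members, and most of its reads lay at genes other than the 8 with the most ZBTB11. It had events at 9 of 49 members (18.37%), against 2234 of all genes (10.2%). The highest were Ndufb6 of the distal arm with 2141.5 reads, Ndufv1, the flavin-bearing NADH-binding subunit, with 1597.3, Ndufb2 with 1427.0, and Ndufa10 of the proximal arm with 1009.8. The next was Ndufs6 with 209.6. In these 4 the largest event lay between 12 bases before and 76 bases after the start. ZFP131 events fell at 2 N module, 3 proximal arm and 4 distal arm genes, and at 0 Q module genes and assembly factors. Both factors were listed at 8 members (16.3%), ZBTB11 alone at 21 (42.9%), ZFP131 alone at 1, Ndufa3, and neither at 19 (38.8%). None of the 8 heavily ZBTB11-bound genes had more than 67.7 ZFP131 reads, the value of Ndufa13.

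**Figure D1:**
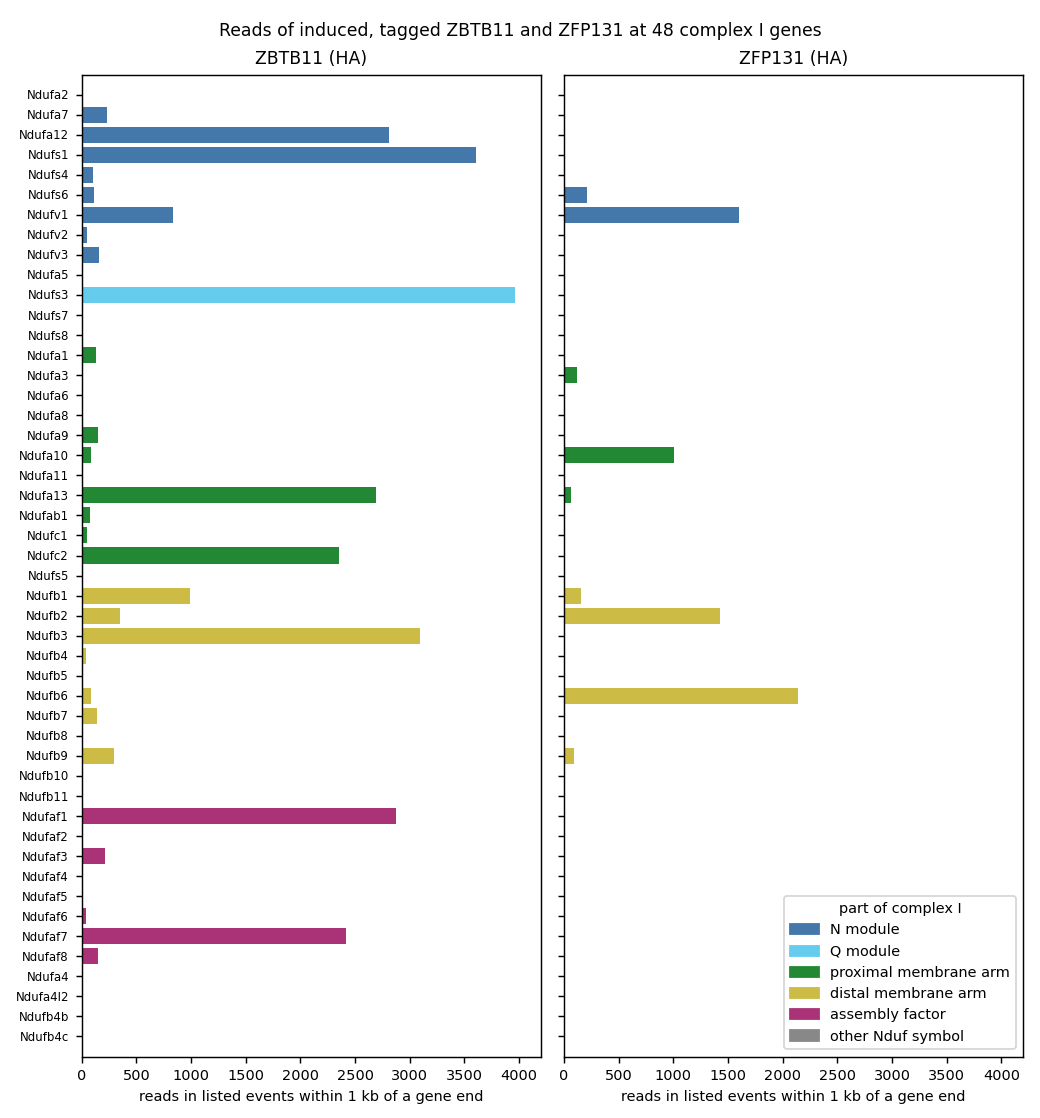
Bars give the HA reads in listed events within 1 kb of a gene end for ZBTB11 (left) and ZFP131 (right), 1 row for each of 48 complex I genes, coloured by its part of the enzyme, from 1 pooled list per factor. The 8 longest ZBTB11 bars, from 2352.3 (Ndufc2) to 3958.7 reads (Ndufs3), stand apart from the next at 986.9 (Ndufb1), and the longest ZFP131 bar is Ndufb6.

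Many complex I genes lie next to another gene: 31 of 49 members had another protein-coding gene's end within 1 kb of their start or their far end. Of the 8 with over 2000 ZBTB11 reads, 5 did: Ndufs1 (Eef1b2), Ndufs3 (Kbtbd4), Ndufb3 (Fam126b), Ndufaf7 (Cebpz) and Ndufa13 (Tssk6 and Yjefn3). At these a signal cannot be assigned to 1 of the genes. Ndufa12, Ndufc2 and Ndufaf1 had no such neighbour.

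In wildtype cells the members bore the marks of active starts. H3K4me3 was listed at 89.8% of members (64.2% of all genes), acetylated H3K27 at 87.8% (46.1%), NELF, the factor that holds paused polymerase, at 89.8% (59.3%), polymerase phosphorylated on serine 5 at 95.9% (57.3%), SETD1A, an H3K4 methyltransferase, at 81.6% (43.7%), and SIN3A, a deacetylase scaffold, at 93.9% (60.4%). The Polycomb mark H3K27me3 was listed at 6.12% of members against 24.6% of all genes, and CHD4, the NuRD remodeller, at 10.2% against 11.3%. Ndufs7, Ndufb4b and Ndufb4c had no region in any of the comparison tables, and Ndufb5 had one for SIN3A only. Ndufs8 had no NELF region, Ndufa6 no H3K4me3 region and Ndufa1 no H3K27ac region.

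Over the whole series, the event lists rested on 24.0 M to 71.6 M reads, and the domain lists give no depth. Reads in NELF events were 23.1% in wildtype, 9.8% in Zbtb11KO, 11.4% in Zfp131KO and 5.1% when both were deleted, and the wildtype header names only 1 replicate. No wildtype or knockout list of NELF or H3K4me3 holds an entry at the ends of Zbtb11, and Zfp131 had 2746 H3K4me3 reads in wildtype and 2247 in Zfp131KO, so these files do not check the deletions. Of the stem cell markers 5 of 6 had acetylated H3K27 in wildtype (Esrrb was at 0), with summed reads of 2260 in wildtype, 5571 in Zbtb11KO and 5469 in Zfp131KO. Summed H3K4me3 of the same markers was 35602 in wildtype, 21034 in Zbtb11KO, 22564 in Zfp131KO and 43750 with both deleted. Their summed NELF was 4878, 986, 1557 and 639 in that order. Markers of fibroblasts, primitive endoderm and neural cells were at 0 for H3K27ac, 10 of 10 in wildtype, Zbtb11KO and Zfp131KO. Their summed H3K4me3 was 4735 in wildtype, 6287 in Zbtb11KO, 11710 in Zfp131KO and 29048 with both deleted, listed at 8 of 10 markers in wildtype and 9 of 10 in each knockout, with S100a4 at 0 throughout. The part of these differences in the results below was not tested. In bulk samples fewer cells of a type and less signal per cell cannot be told apart.

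NELF was lower in Zbtb11KO at most complex I genes, as it was at most genes. The NELF comparison was deposited under both knockouts with identical values, so its knockout is inferred. It was read as Zbtb11KO because its fold changes had a Spearman rho of 0.71 with the listed ratios of Zbtb11KO and 0.48 with those of Zfp131KO. In the authors' deposited table (DESeq2, adjusted p under 0.05 over all regions), 28 of 44 members with a region were lower (63.6%) and 0 were higher. Of all 13321 genes with a region 55.3% were lower and 0.0901% higher. The median log2 fold change was -0.91 for members and -0.97 for all genes. The share of members was thus close to that of all genes. The median over all regions of the table was itself -1.04. Centred on it, with Wald tests on the deposited DESeq2 standard errors, 0 of 44 members were lower and 0 higher, against 0.285% and 0.225% of all genes. Without adjustment 31 members had p under 0.05 in the table as deposited.

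Among the members, 5 lost the most NELF, and 4 of those 5 were heavily bound by ZBTB11. Ndufaf1 had 520.8 NELF reads in wildtype, none listed in Zbtb11KO, 375.5 in Zfp131KO and none listed in the double knockout. Its log2 fold change was -2.17 (SE 0.43, DESeq2 adjusted p = 3.09e-05) in the authors' deposited table, the lowest 2.0% of all genes. Ndufc2 had 487.2 reads in wildtype, none listed in Zbtb11KO, 400.6 in Zfp131KO and none listed in the double knockout. Both genes thus dropped out of the lists in the genotypes without Zbtb11 and stayed in the others. For Ndufc2 the authors' deposited table gave -2.07 (SE 0.42, DESeq2 adjusted p = 4.63e-05). Ndufa13 had 1490.4, 408.2, 908.3 and 155.8 reads in the same order of genotypes, with -1.74 (SE 0.32, DESeq2 adjusted p = 7.20e-06) in the authors' deposited table. Ndufa12 had 808.1, 193.6, 607.7 and 260.0 reads, with -1.57 (SE 0.38, DESeq2 adjusted p = 6.72e-04) in that same column of the authors' deposited table. These pooled lists hold 1 value per genotype and so carry no replicate error. Ndufa6, a proximal arm gene with no ZBTB11 event, stood at -2.06 (SE 0.65, DESeq2 adjusted p = 0.00724) in the authors' deposited table, on the weakest of the 44 regions. Relative to the table's median Ndufaf1 and Ndufc2 stood at -1.13 and -1.03. Wald tests on these centred values with the deposited DESeq2 standard errors gave adjusted p of 0.271 and 0.34.

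H3K4me3, which is laid down at active starts, was called lower at a larger share of complex I genes than of all genes in Zbtb11KO. Of 44 members 23 were lower (52.3%) and 7 higher (15.9%) in the authors' deposited table at a DESeq2 adjusted p under 0.05. For all 14238 genes with a region 24.5% were lower and 42.4% higher. The median log2 fold change was -0.47 for members and 0.17 for all genes, while over all regions of the table, at genes or not, it was -0.17. Lower were 6 of 9 N module genes, 2 of 4 Q module genes with a region, 5 of 11 of the proximal arm, 4 of 10 of the distal arm and 6 of 8 assembly factors. Higher were 1, 0, 3, 1 and 2 of them. In this table the fold change rose with the signal of the region, the all-gene median going from -0.7 in the weakest of 5 equal classes of genes to 1.85 in the strongest. After centring on the running median of regions of like signal, Wald tests on the deposited DESeq2 errors gave 31 members lower (70.5%) and 3 higher (6.82%), against 33.8% and 28.8% of all genes. The medians were then -0.85 for members and -0.16 for all genes.

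Ndufc2, Ndufaf1 and Ndufa12 had the largest called losses in the authors' deposited table. Ndufc2 had 2337 H3K4me3 reads listed in wildtype, 288 in Zbtb11KO, 2431 in Zfp131KO and 656 with both deleted. The authors' deposited table gave it a log2 fold change of -3.16 in Zbtb11KO (SE 0.26, DESeq2 adjusted p = 8.00e-33), rank 169 from the bottom of 14238 genes. Ndufaf1 had 2178, 251, 1476 and 493 reads in the same order. Its fold change in the authors' deposited table was -2.64 (SE 0.27, DESeq2 adjusted p = 9.53e-22), rank 233. For both genes the 2 genotypes without Zbtb11 were low and the 2 with it were high. Ndufa12 had 2278 reads in wildtype, 931 in Zbtb11KO, 1949 in Zfp131KO and 2513 with both deleted. Its log2 ratio to wildtype in the double knockout, 0.14, was above 0 but low for that list, where the median of all genes was 0.72. In the authors' deposited table Ndufa12 was at -1.74 (SE 0.21, DESeq2 adjusted p = 1.27e-15). Next in the authors' deposited table came Ndufv3 at -1.19 (SE 0.19, DESeq2 adjusted p = 1.50e-09) and Ndufc1 at -1.06 (SE 0.16, DESeq2 adjusted p = 1.18e-09), each with few ZBTB11 reads.

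In the table as deposited, these 3 were the heavily bound genes without a neighbouring gene. Their fold changes ran from -3.16 to -1.74, and those of the 5 with a neighbour from -1.04 to 0.07. Ndufs3 was at -1.04 (SE 0.14, DESeq2 adjusted p = 8.18e-13) and Ndufs1 at -0.77 (SE 0.1, DESeq2 adjusted p = 1.38e-13) in the authors' deposited table, while Ndufb3 at -0.3 and Ndufa13 at 0.07 did not pass. Centred on regions of like signal, the 2 kinds overlapped. The 5 with a neighbour then ran from Ndufs1 at -2.61 to Ndufb3 at -0.84, and the 3 without from Ndufc2 at -3.11 to Ndufa12 at -1.79. Ndufb3 and Ndufa13, at -1.1, were then called lower (Wald tests on DESeq2 errors, adjusted p = 6.73e-09 and 8.22e-20). Ndufa11 at -2.14, Ndufaf3 at -1.87 and Ndufaf5 at -1.83 then stood below Ndufa12. Of these 2 scalings, only the deposited one thus showed the split between genes with and without a neighbour. The listed read ratios of Zbtb11KO, from the same libraries and not scaled for depth, did not overlap either. They ran from -3.12 (Ndufaf1) to -1.29 (Ndufa12) without a neighbour and from -1.0 (Ndufs3) to -0.5 (Ndufa13) with one. The split was not tested.

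Of the 7 members higher in Zbtb11KO, 2 stood out and both rested on strong regions. Ndufv2, an iron-sulfur subunit of the N module, was at 1.91 (SE 0.09, DESeq2 adjusted p = 1.37e-92) in the authors' deposited table, from a region beyond the far end of the gene near Ankrd12. The same table, as deposited by the authors, put Ndufa10 at 1.89 (SE 0.1, DESeq2 adjusted p = 1.70e-81). Its listed reads were 3684 in wildtype, 3468 in Zbtb11KO, 2812 in Zfp131KO and 4546 with both deleted. The Zbtb11KO log2 ratio, -0.09, was the second highest of the 43 members in that list, where the median of all genes was -0.43. Centred on regions of like signal, Ndufv2 was at -0.21 (DESeq2 errors, adjusted p = 0.0889) and Ndufa10 at 0.08 (adjusted p = 0.65). Ndufab1, the mitochondrial acyl carrier protein, was at 0.99, Ndufaf6 at 0.93 and Ndufaf4 at 0.63 in the authors' deposited table, and these 3 remained higher after that centring.

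In Zfp131KO, H3K4me3 was lower at 0 of 44 members and higher at 17 (38.6%) in the authors' deposited table at a DESeq2 adjusted p under 0.05. Of all 14277 genes with a region 4.18% were lower and 33.5% higher. The median log2 fold change was 0.24 for members and for all genes, so the complex I genes moved with the other genes. Over all regions of the table, at genes or not, it was -0.0115. Centred on regions of like signal, 6 members were lower (13.6%) and 2 higher (4.55%), against 9.76% and 9.1% of all genes. The 6 were Ndufaf5, Ndufa10, Ndufaf7, Ndufs1, Ndufs5 and Ndufv3, and of these only Ndufa10 had a ZFP131 event. Ndufaf4, an assembly factor of the Q module, had the largest called rise, 0.72 (SE 0.14, DESeq2 adjusted p = 1.05e-05), in the authors' deposited table. Ndufa3 followed at 0.49 and Ndufaf8 at 0.48, with Ndufa8, Ndufb7, Ndufb8 and Ndufa1 at 0.47, in the authors' deposited table.

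**Figure D2:**
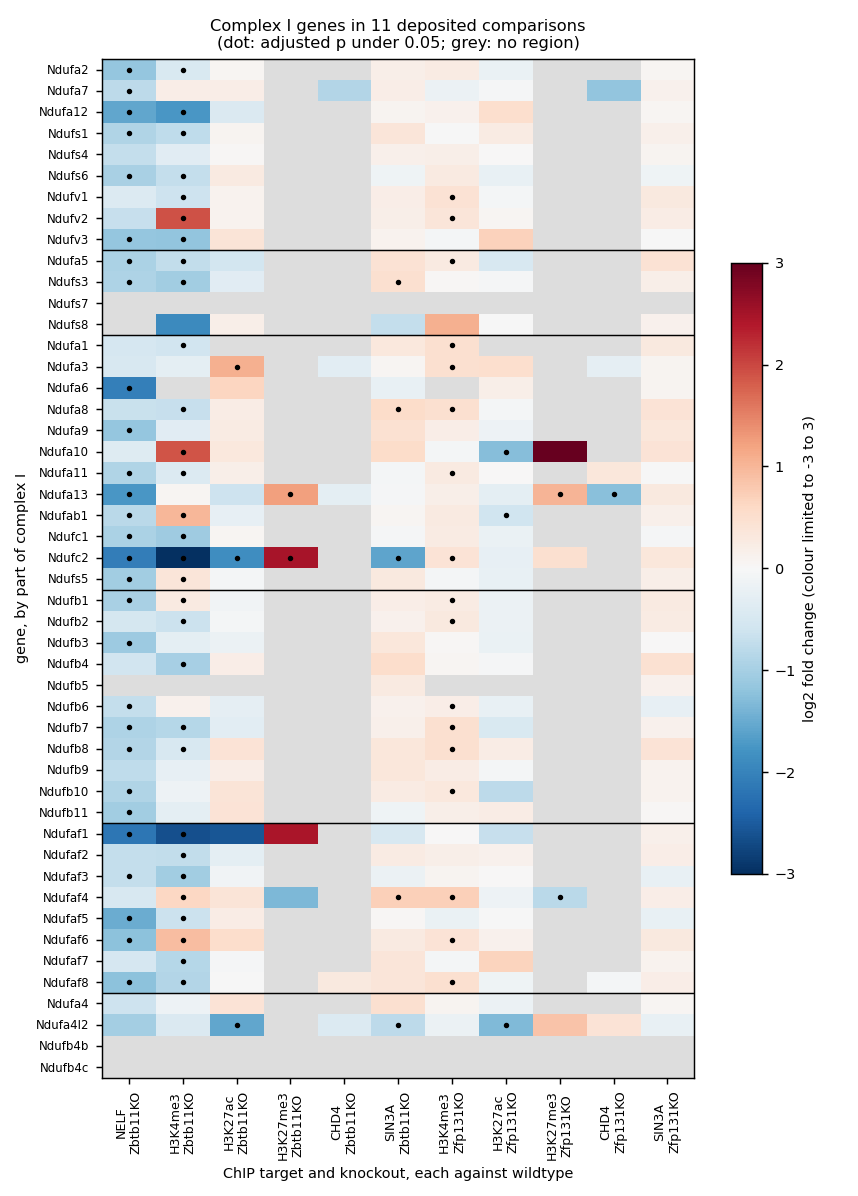
Colour gives the log2 fold change of 48 complex I genes (rows, by part of the enzyme) in each of the 11 deposited comparisons of a knockout with wildtype (columns), with a dot where the DESeq2 adjusted p was under 0.05 and grey where the gene had no region. Blue prevails in the NELF and H3K4me3 columns of Zbtb11KO, deepest at Ndufc2 and Ndufaf1, and most Zfp131KO columns are pale.

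Acetylated H3K27, a mark of active promoters and enhancers, changed at few complex I genes. In Zbtb11KO the authors' deposited table called 2 of 44 members lower and 1 higher, where 9.94% of all 10494 genes were lower and 3.7% higher. Ndufc2 was lower, at -1.87 (SE 0.35, DESeq2 adjusted p = 4.67e-06), with 265 listed reads in wildtype, 42 in Zbtb11KO and 215 in Zfp131KO. Ndufaf1 had 159, none listed and 92 reads. Its strongest region, only 41 bp long, gave -2.57 with an SE of 2.83, and its nearest region gave -1.35 (SE 0.44, DESeq2 adjusted p = 0.0129) in the authors' deposited table. Of the other heavily bound genes, Ndufa12 had 180, 46 and 123 reads and Ndufb3 220, 82 and 184, both without passing the test on the strongest region. Both were lowest in Zbtb11KO, while Ndufs1 had 935, 952 and 1100 reads and was not. The other called members of the authors' deposited table, Ndufa4l2 at -1.56 (SE 0.31, DESeq2 adjusted p = 1.30e-05) and Ndufa3 at 1.07 (SE 0.3, DESeq2 adjusted p = 0.00327), rested on regions of 35 and 84 bp.

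In Zfp131KO 3 of 44 members had less acetylation and 0 more in the authors' deposited table, where 11.1% of all 10571 genes were lower and 4.56% higher. The largest change on a long region was Ndufa10, a subunit of the proximal arm with 1009.8 ZFP131 reads. Its listed H3K27ac was 311 in wildtype, 337 in Zbtb11KO and 85 in Zfp131KO, so the line without Zfp131 was the low one. In the authors' deposited table it was at -1.28 (SE 0.31, DESeq2 adjusted p = 4.77e-04). Ndufab1 was at -0.59 (SE 0.17, DESeq2 adjusted p = 0.00447) in the authors' deposited table, and Ndufa4l2, at -1.32, again rested on a 35 bp region. The other 3 genes with much ZFP131, Ndufb6, Ndufv1 and Ndufb2, did not pass.

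H3K27me3, the repressive Polycomb mark, was rare at complex I genes, and 3 heavily bound ones carried it in Zbtb11KO. In wildtype 3 members had any listed H3K27me3, with 46 reads at most. Ndufc2 had 27 reads in wildtype, 562 in Zbtb11KO and 61 in Zfp131KO. Ndufa13 had 46, 309 and 163 reads, and Ndufaf1 had none listed, 165 and none listed. These 3 were all among the 8 genes with over 2000 ZBTB11 reads, and no other member had a domain in Zbtb11KO. For Zbtb11KO 4 members in the authors' deposited table had a region, and DESeq2 called 2 higher and 0 lower, where 6.46% of all 6359 genes were higher and 3.51% lower. In the authors' deposited table Ndufc2 rose by 2.48 on the log2 scale (SE 0.38, DESeq2 adjusted p = 1.50e-08) over an 843 bp region at its start, chr7:97399953-97400796, and Ndufa13 by 1.24 (SE 0.32, DESeq2 adjusted p = 0.00291). Ndufaf1 missed the call on a 47 bp region (2.45, SE 2.98, adjusted p = 0.616), while its 592 bp region at the start, chr2:119662677-119663269, rose by 2.91 (SE 0.58, DESeq2 adjusted p = 2.66e-05) in the authors' deposited table. Of the 411 genes with over 2000 ZBTB11 reads 84 had a region here, and 59 of them were higher, with a median of 2.17. In the Zfp131KO comparison 27 genes of this class had a region. A gene with little or no wildtype signal, such as Ndufaf1, can have a region through the knockout alone. The share higher among genes with a region is therefore raised by this selection, for members too, and was not tested.

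In Zfp131KO the authors' deposited table held 6 members, 2 higher and 1 lower in H3K27me3, where 9.95% of all 6570 genes were higher and 6.59% lower. In the authors' deposited table Ndufa13 was at 1.03 (SE 0.34, DESeq2 adjusted p = 0.0183) over 537 bp. Ndufaf4 was lower at -0.82 (adjusted p = 0.0451) on 39 bp, and Ndufa10, with 13 listed reads, was at 4.44 with an SE of 2.3 (adjusted p = 0.165) in the authors' deposited DESeq2 table. Both regions are short, that of Ndufa10 being 49 bp. Their mean signal was 233.5 at Ndufaf4 and 96.91 at Ndufa10, against 125.8 at Ndufa13. Ndufc2, which rose in Zbtb11KO, was at 0.47 (SE 0.45, adjusted p = 0.481) in the authors' deposited DESeq2 table for Zfp131KO.

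**Figure D3:**
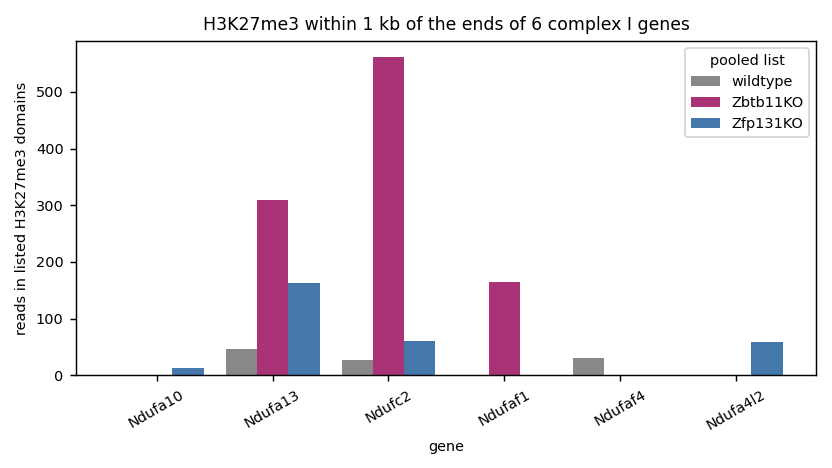
Bars give reads in listed H3K27me3 domains within 1 kb of a gene end for 6 complex I genes with a domain, in wildtype, Zbtb11KO and Zfp131KO, from 1 pooled list per genotype. Ndufc2 (562 reads), Ndufa13 (309) and Ndufaf1 (165) reach their highest bars in Zbtb11KO, and the remaining genes stay at 59 reads or fewer.

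The corepressors changed little at complex I genes. For CHD4 in Zbtb11KO the authors' deposited table held 5 members, 0 lower and 0 higher at a DESeq2 adjusted p under 0.05 and 0 with an unadjusted p under 0.05, where 0.636% of all 3144 genes were lower and 2.1% higher. In Zfp131KO it held 6 members, with 1 lower and 0 higher, where 6.09% of all 3909 genes were lower and 1.1% higher. That gene was Ndufa13, at -1.26 (SE 0.34, DESeq2 adjusted p = 0.00383), against -0.29 (adjusted p = 0.706) in Zbtb11KO in the authors' deposited tables.

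SIN3A had a region at 46 members. In Zbtb11KO the authors' deposited table called 2 lower and 3 higher, where 2.33% of all 13766 genes were lower and 5.6% higher. In the authors' deposited table Ndufc2 fell by 1.58 on the log2 scale (SE 0.29, DESeq2 adjusted p = 2.06e-05). As deposited, this gene was thus called lower for NELF, H3K4me3, H3K27ac and SIN3A and higher for H3K27me3 in the same line. Its NELF call was lost with centring on the table's median (Wald test on DESeq2 errors, adjusted p = 0.34). Ndufa4l2 was at -0.78 (SE 0.19, DESeq2 adjusted p = 0.003) in the authors' deposited table. Ndufaf4 was higher at 0.72, Ndufa8 at 0.56 and Ndufs3 at 0.49, with DESeq2 adjusted p of 0.0105, 0.0405 and 0.0487 in the authors' deposited table. In Zfp131KO 0 members were called in either direction by DESeq2 and 3 had an unadjusted p under 0.05, where 1.57% of all 12866 genes were lower and 5.62% higher.

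The relation of change to ZBTB11 reads was weak over all members and stronger among bound ones. Over the 44 members with a region, Pearson's r between log2 ZBTB11 reads plus 1 and the log2 fold change in Zbtb11KO was -0.17 for NELF, -0.22 for H3K4me3 and -0.38 for H3K27ac, with Spearman's rho of -0.14, -0.27 and -0.46. Over all genes r was 0.09, 0.11 and 0.03. Over bound members r was -0.47 for NELF (n = 29), -0.49 for H3K4me3 (n = 29) and -0.48 for H3K27ac (n = 28). Without Ndufaf1 and Ndufc2 these became -0.32, -0.36 and -0.39. Over all bound genes r was 0.06 for NELF, -0.19 for H3K4me3 and -0.05 for H3K27ac. The H3K4me3 fold changes used here were not centred. Their rho with the mean signal of the region was 0.4 over members and 0.54 over all genes. Spearman's rho over bound members was -0.31, -0.35 and -0.45. In Zfp131KO, where Zbtb11 was not deleted, H3K4me3 against ZBTB11 reads over bound members gave r of -0.36 and rho of -0.41. For the listed NELF ratios in Zbtb11KO r was -0.02 over 38 members. The genes share the same libraries and are not replicates, so these are descriptions.

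By class, the 8 members with over 2000 reads had median log2 fold changes in Zbtb11KO of -1.34 for NELF, -0.95 for H3K4me3 and -0.39 for H3K27ac. The 21 bound members with fewer reads had -0.77, -0.42 and 0.08, and the members without an event -0.9, -0.44 and 0.23. For all genes the H3K4me3 medians were -0.38, 0.44 and -0.07 in these classes. Lower H3K4me3 was called at 6 of the 8, at 10 of the 21 and at 7 of 15 without an event, so the loss was not limited to bound genes. Of all genes with a region it was called at 206 of 409, 1793 of 7344 and 1485 of 6485 in these classes. Ndufaf5 and Ndufa5, without an event, were lower for both H3K4me3 and NELF. For ZFP131 reads and change in Zfp131KO, r over members was 0.03 for H3K4me3, -0.16 for H3K27ac and 0.03 for SIN3A.

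**Figure D4:**
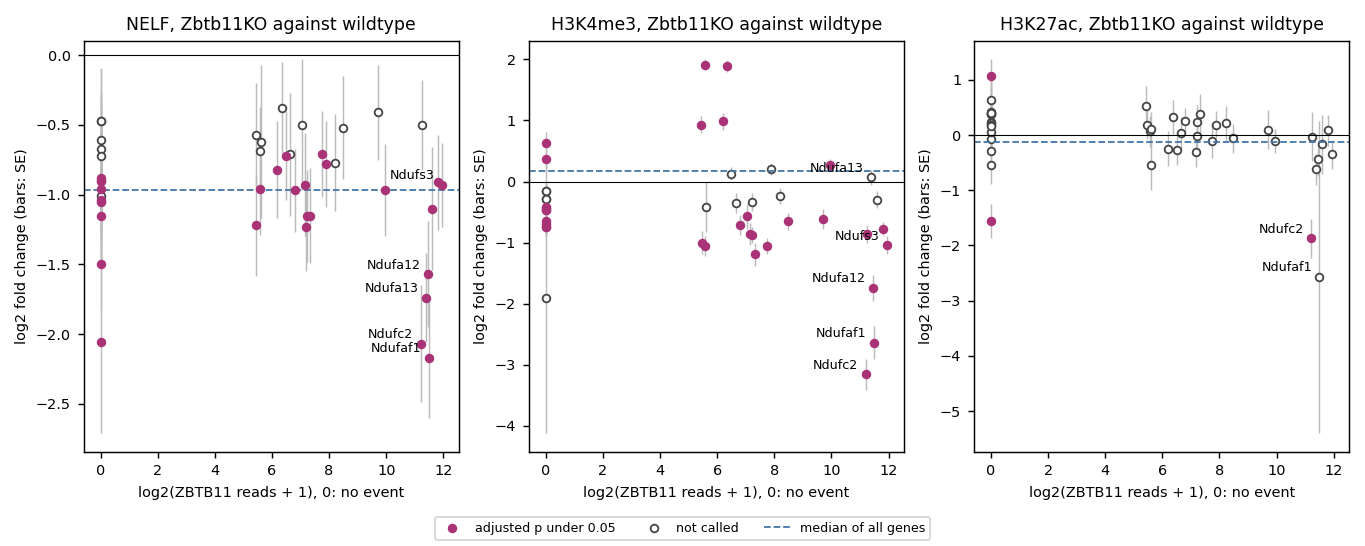
Each point is a complex I gene, with log2(ZBTB11 reads + 1) on the x axis (0 where no event was listed) and its log2 fold change in Zbtb11KO against wildtype with SE on the y axis, for NELF, H3K4me3 and H3K27ac, filled where the DESeq2 adjusted p was under 0.05; the dashed line is the median of all genes. Ndufc2 and Ndufaf1 lie lowest at the right of each plot, and genes at 0 on the x axis spread widely.

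The pooled lists add the double knockout, which has no deposited comparison table here. For NELF, scaled by the total reads of each list, the median log2 ratio to wildtype over listed members was -0.68 for the Zbtb11KO line (38 of 44 still listed), -0.49 for Zfp131KO (41 of 44) and -1.5 for the double knockout (32 of 44). For all genes the medians were -0.91, -0.73 and -1.76, with 72.5%, 74.2% and 49.2% still listed, against 86.4%, 93.2% and 72.7% of members. The order of the genotypes was thus the same for members and for all genes. The medians cover only genes still listed, and they turn positive when reads in events are the scale. In Zbtb11KO the lowest listed ratios were Ndufb10 at -2.03, Ndufb11 at -1.96 and Ndufa12 at -1.82, and the highest Ndufb2 at -0.28, Ndufv1 at -0.34 and Ndufa3 at -0.34. All 3 of the highest had ZFP131 events, but so had Ndufa13, at -1.62. By ZFP131 reads, the median ratio was -0.75 for 29 members without an event and -0.5 for 8 with up to 2000 reads. Over all genes these medians were -0.96 and -0.79. This difference was not tested. Among those no longer listed in Zbtb11KO were Ndufaf1, Ndufc2, Ndufa4l2, Ndufa6 and Ndufa1.

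In Zfp131KO the NELF ratios ran from Ndufb10 at -1.52, Ndufaf3 at -1.35 and Ndufs5 at -1.14 up to Ndufs4 at 0.05, Ndufb9 at 0.05 and Ndufa1 at 0.27, and Ndufa4l2 and Ndufa6 were among those no longer listed. In the double knockout Ndufa13 was lowest at -3.5, then Ndufa11 at -2.49 and Ndufaf2 at -2.44, and Ndufab1 at -0.89, Ndufa5 at -0.95 and Ndufb9 at -0.99 were highest. On this scale no listed member kept its wildtype level of NELF there.

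For H3K4me3 the lists give no depth, so only genes within a list can be set side by side. Over 43 members the median log2 ratio of listed reads was -0.64 for Zbtb11KO, -0.15 for Zfp131KO and 0.71 for the double knockout, and -0.43, -0.11 and 0.72 over all genes. In Zbtb11KO Ndufaf1 at -3.12, Ndufc2 at -3.02 and Ndufa12 at -1.29 were lowest, and Ndufaf4 at -0.08, Ndufa10 at -0.09 and Ndufab1 at -0.22 highest. In the double knockout Ndufaf1 at -2.14 and Ndufc2 at -1.83 were again lowest, and Ndufb10 at 1.83, Ndufaf4 at 1.33 and Ndufaf3 at 1.3 were highest. In Zfp131KO Ndufaf1 at -0.56 and Ndufaf5 at -0.52 were among the lowest. Ndufaf4, Ndufa1 and Ndufa3 were highest there, at 0.38, 0.16 and 0.15.

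**Figure D5:**
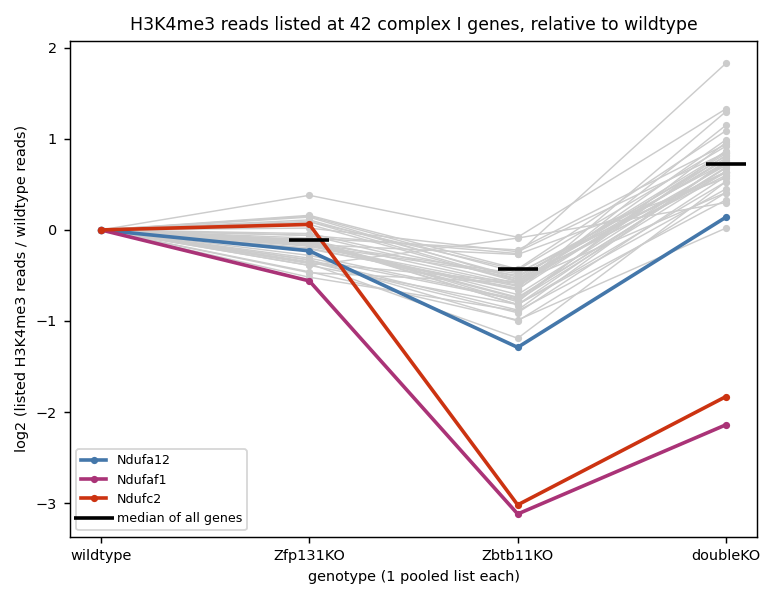
Each line is 1 of 42 complex I genes, and the y axis gives the log2 ratio of its listed H3K4me3 reads to wildtype in 1 pooled list per genotype, not scaled for depth; black bars are the medians of all genes. Ndufaf1 (-3.12) and Ndufc2 (-3.02) lie far below the rest in Zbtb11KO and stay lowest in the double knockout.

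The listed genes of the other respiratory complexes had ZBTB11 events too. Events lay at 3 of 4 genes of complex II, 7 of 9 of complex III, 7 of 10 of complex IV and 11 of 15 of ATP synthase, with 0 of them above 2000 reads. The median reads of bound genes were 270, 97.2, 219 and 132 in the same order, against 159 for complex I genes. Of 11 complex I factors not named Nduf, such as Ecsit and Acad9, 6 were bound and 1 was above 2000 reads. Of 9 regulators of respiratory chain genes, such as Nrf1 and Gabpa, 7 were bound and 2 were above 2000 reads. ZFP131 events lay at 1, 1, 0 and 1 genes of these complexes, at 5 of the 11 factors and at 3 of the 9 regulators.

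H3K4me3 in Zbtb11KO was lower at 3 of 4 complex II genes, 6 of 9 of complex III, 4 of 8 of complex IV and 5 of 13 of ATP synthase, and higher at 0, 3, 2 and 5 of them, in the authors' deposited table at a DESeq2 adjusted p under 0.05. The complex I factors not named Nduf had 4 of 11 lower and 3 higher, and the regulators had 0 of 8 lower and 6 higher. NELF in Zbtb11KO was lower at 4 of 4, 6 of 9, 0 of 8 and 10 of 14 genes of complexes II, III and IV and ATP synthase, at 3 of 11 of the other complex I factors and at 6 of 8 regulators. No gene of complexes II to IV or ATP synthase had an H3K27me3 region in Zbtb11KO. Whether the complex I genes differ from these lists was not tested.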

How the data were processed

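Mouse embryonic stem cell ChIP-seq libraries were analysed from the lists and comparison tables the authors deposited. The submitters' processing notes name Bowtie 1.0.1 and the mm10 build. Binding events were called with MultiGPS on the replicates named, per the file headers, and the deposited signal of an event is its read total over those replicates, with a control signal, a log2 ratio over control and a score (a p-value on a log2 scale). Domains were called with DomainFinder of SEED, per the file headers, and hold deposited counts of reads with a p-value per domain. The comparison tables, deposited by the authors, were made with DESeq2 1.28.1 per the submitters' processing notes, and give a mean signal, log2 fold change, standard error, Wald score, p-value and adjusted p-value per region, with scaling not given in the sources used here.

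Members were taken by symbol, and reads were summed over entries within 1 kb of either gene end. In each table a gene was given the region of highest mean signal there, and was called at an adjusted p under 0.05 (Benjamini-Hochberg over all regions, by the authors). The NELF table was deposited under both knockouts with identical values; over 8770 genes its fold changes had a Spearman rho of 0.71 with the listed ratios of Zbtb11KO and 0.48 with those of Zfp131KO, and it was read as Zbtb11KO. Of identical files, 2 were not used, and 0 columns of other samples were present. Ratios of listed reads used genes with at least 50 wildtype reads. Genes were named by size: up to 5 lower and 5 higher in each table, 5 per factor, and the 3 highest and lowest listed ratios; others were chosen after their values were seen. The values of 1 member are counted in all totals and not reported here. Motifs were searched on both strands in 300-base RefSeq windows. Members and lists (complexes II to V, regulators, cell type markers) were chosen with earlier results of these data known. Python 3.11.15 with numpy 2.4.6, pandas 2.3.3, scipy 1.17.1 and matplotlib 3.10.9 was used, and the assignment and calling steps were tested on simulated data. Alternatives covered the window (500 bp, 2 kb), gene end, region choice, threshold, signal filter, centring and scaling.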

Additional observations from a re-analysis of the deposited data

How the results depend on the processing

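No paired analysis was possible because the files hold no values per region and library, and for the same reason no replicate could be left out. Centring on the running median of regions of like signal and leaving out regions under 100 bp were added after seeing the data. The count of lower NELF members, 28, became 14 at an adjusted p under 0.01 and 0 with centring on the table or the running median. Running-median centring left 3 higher members for H3K4me3 in Zbtb11KO, gave 6 lower and 2 higher for H3K4me3 in Zfp131KO, 2 lower for CHD4 in Zfp131KO and 1 higher for SIN3A in Zbtb11KO, and put Ndufv2 at -0.21. At an adjusted p under 0.01, higher members were 11 for H3K4me3 in Zfp131KO, 1 for H3K27me3 in Zfp131KO and 0 for SIN3A in Zbtb11KO, and lower ones 0 for H3K27me3 in Zfp131KO. A window of 2 kb gave 1 lower for H3K4me3 and 1 higher for SIN3A in Zfp131KO. The promoter end alone left 1 lower for H3K27ac in Zbtb11KO, and the nearest region, or leaving out short regions, 0 higher. Leaving out short regions gave 0 lower for H3K27me3 in Zfp131KO. Regions at or above the median signal gave 0 higher for H3K27me3 in Zbtb11KO, 1 higher in Zfp131KO and 1 lower for SIN3A in Zbtb11KO. Scaled by reads in events, the median NELF log2 ratios became 0.56, 0.53 and 0.68 in Zbtb11KO, Zfp131KO and the double knockout, with Ndufa3 at 0.9, Ndufv1 at 0.9 and Ndufb2 at 0.95 in Zbtb11KO and Ndufb9 at 1.19, Ndufa5 at 1.23 and Ndufab1 at 1.29 in the double knockout. Without scaling the Zbtb11KO and double knockout medians were -0.92 and -1.25, and a 500 bp window gave -1.36 in the latter. Under the other settings 203 counts and medians stayed near their value, and of the values of single genes 426 did so, 34 moved and 28 kept their direction but lost the call. The cause of these changes was not tested. Few members had an H3K27me3 or CHD4 region, which limits what can be said of these targets, and the domain lists give no depth.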

Other observations

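In 300-base promoter windows, available for 42 members, each of the 3 searched motifs had matches. GCATGCGC (NRF1) was in 5 of 42 members (11.9%) and 631 of 17492 promoters (3.61%), AAGATGGCG (YY1) in 6 members (14.3%) and 1.92% of promoters, and CCGGAAG (ETS) in 6 members (14.3%) and 11.9% of promoters. The NRF1 letters were in 0 of 25 promoters of genes with a ZBTB11 event within 1 kb of either gene end. They were in 5 of 17 promoters of genes without one, namely Ndufa11, Ndufa6, Ndufa8, Ndufaf4 and Ndufaf5. The YY1 letters were in 5 of the 25 promoters of bound genes and 0 of the 7 of genes with over 2000 reads. The ETS letters were in 5 of the 25 and 2 of the 7. Ndufb6, among those with ETS letters, had its only ZBTB11 event at the far end of the gene. These counts were not tested.

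Among the 6 stem cell markers H3K27ac was higher in Zbtb11KO at 3 of 5 with a region and lower at 0, in the authors' deposited table (DESeq2). Of all genes 3.7% were higher and 9.94% lower. The median log2 fold change was 1.17 for these markers and -0.13 for all genes. NELF was lower at 5 of 6 of the stem cell markers, against 55.3% of all genes, with medians of -1.9 and -0.97. The 10 markers of other cell types included 2 with a ZBTB11 event and 0 with a ZFP131 event, against 35.92% and 10.2% of all genes.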
